A study of Mus musculus with 10 samples.

Results

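Prostate samples of TRAMP mice differed in the RNA level of seminal vesicle secretory genes, and arrays with a high level were compared with arrays with a low level across all genes. The arrays were chosen by measured values. Of the 10 arrays of the series, the 2 with Chga (chromogranin A, a marker of neuroendocrine tumour cells) above 9 log2 units were left out. The other 8 were classed by the mean log2 level of Svs2, Svs4, Svs5 and Svs6, secretory genes of the seminal vesicle: 5 arrays lay above 10 log2 units and 3 below. Of these 8 arrays, 5 were of water mice and 3 of nicotine mice.

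All mice were males of the TRAMP line, which carries a viral T antigen transgene driven by the promoter of Pbsn, a gene of the prostate epithelium, and forms prostate tumours. From 8 to 9 weeks of age they drank tap water, or tap water with nicotine (added as the tartrate salt) at 250 µg/ml, with 5 mice in each drinking group and 1 array per mouse. Total RNA labelled as prostate was extracted with Trizol and hybridised to 1-colour Affymetrix whole-transcript arrays, and values are the deposited log2 levels. The labels do not say whether the seminal vesicles were dissected away, nor at what age the tissue was taken.

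The seminal vesicles are androgen-dependent glands that lie against the prostate and open into the urethra beside it. They arise from the Wolffian duct, whereas the prostate arises from the urogenital sinus. Their epithelium secretes a few proteins in very large amounts, which make up most of the seminal fluid, and in rodents Svs2 and its relatives are cross-linked by Tgm4, a transglutaminase of the prostate, into the copulatory plug.

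Svs2, Svs3a, Svs3b, Svs4, Svs5 and Svs6 are neighbours on chromosome 2, and the 250 bases before the annotated start of each are given because these genes moved together over the arrays. Wfdc15b, the next gene beside Svs2, is shown with them because it was the only flanking gene past a threshold further on. The sequences are those of RefSeq, assembly GRCm38.p6, read 5′ to 3′ on the gene's own strand. Capitals mark 3 motifs searched on both strands: AGAACA, 1 arm of the palindromic site of the androgen and glucocorticoid receptors (TGTTCT on the other strand), TATAAA, the TATA box (TTTATA on the other strand), and GATAAG, a motif of GATA factors (CTTATC on the other strand).
Svs2 (chr2:164238342-164238591, minus strand): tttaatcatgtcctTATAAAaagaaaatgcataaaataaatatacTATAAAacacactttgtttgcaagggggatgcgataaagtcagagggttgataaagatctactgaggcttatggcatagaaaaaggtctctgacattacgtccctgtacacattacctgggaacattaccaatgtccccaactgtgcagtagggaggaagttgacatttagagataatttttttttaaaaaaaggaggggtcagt
Svs3a (chr2:164289017-164289266, plus strand): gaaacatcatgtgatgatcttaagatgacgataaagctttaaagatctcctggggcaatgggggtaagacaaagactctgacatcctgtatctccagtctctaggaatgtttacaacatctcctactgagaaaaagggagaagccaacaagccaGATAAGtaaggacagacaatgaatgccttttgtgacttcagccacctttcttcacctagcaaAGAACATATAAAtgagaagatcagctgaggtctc
Svs3b (chr2:164256644-164256893, minus strand): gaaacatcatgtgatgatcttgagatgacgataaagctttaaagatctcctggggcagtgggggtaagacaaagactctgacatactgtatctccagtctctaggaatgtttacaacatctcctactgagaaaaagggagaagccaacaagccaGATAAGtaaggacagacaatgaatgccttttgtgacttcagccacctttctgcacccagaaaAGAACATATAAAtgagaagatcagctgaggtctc
Svs4 (chr2:164278308-164278557, minus strand): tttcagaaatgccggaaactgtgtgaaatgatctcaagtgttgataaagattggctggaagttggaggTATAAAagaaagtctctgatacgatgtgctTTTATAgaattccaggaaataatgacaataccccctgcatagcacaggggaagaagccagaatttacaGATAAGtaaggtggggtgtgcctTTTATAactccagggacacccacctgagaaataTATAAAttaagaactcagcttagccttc
Svs5 (chr2:164332515-164332764, plus strand): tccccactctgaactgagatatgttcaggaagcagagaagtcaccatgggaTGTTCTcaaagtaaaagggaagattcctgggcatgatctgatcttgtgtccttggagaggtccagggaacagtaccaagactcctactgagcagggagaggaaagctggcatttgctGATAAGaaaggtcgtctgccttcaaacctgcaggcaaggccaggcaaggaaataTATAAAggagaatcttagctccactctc
Svs6 (chr2:164316501-164316750, plus strand): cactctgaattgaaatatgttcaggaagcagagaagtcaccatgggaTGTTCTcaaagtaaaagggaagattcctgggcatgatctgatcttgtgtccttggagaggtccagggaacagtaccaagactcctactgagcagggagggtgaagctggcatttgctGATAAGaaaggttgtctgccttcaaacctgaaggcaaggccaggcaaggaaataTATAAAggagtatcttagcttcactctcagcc
Wfdc15b (chr2:164221664-164221913, minus strand): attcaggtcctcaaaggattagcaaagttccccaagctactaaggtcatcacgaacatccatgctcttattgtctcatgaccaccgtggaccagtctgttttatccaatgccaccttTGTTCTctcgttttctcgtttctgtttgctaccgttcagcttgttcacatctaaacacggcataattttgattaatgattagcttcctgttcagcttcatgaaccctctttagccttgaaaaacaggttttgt

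The Svs3a and Svs3b sequences were identical at 97.6% of 250 aligned positions, and those of Svs5 and Svs6 at 93.3% of 254. Between the remaining pairs of the 6 Svs genes identity ran from 45.0% to 60.7%. Probe sets of such close copies may share RNA, which was not tested. A GATAAG match stood in the sequences of Svs3a, Svs3b, Svs4, Svs5 and Svs6, between 77 and 96 bases before the start, and the same 5 held a sense TATAAA within 40 bases of it. In Svs3a and Svs3b an AGAACA match directly adjoined that TATAAA. Of the 11 secretory genes described next, 9 were searched in the same way. Pate4 had no upstream sequence in the source and Spinkl was left out of the search, so the shares do not cover these genes. AGAACA was found in 7 of these 9, against 16.1% of all 32851 upstream sequences of the same length, GATAAG in 5 against 6.55%, and a sense TATAAA within 40 bases of the start in 5 against 2.31%. The full palindromic receptor site, both arms with 3 free bases between, was in 0 of the 9 and in 0.00913% of all. TGTTTAC, a forkhead motif, was in 2 of the 9 and in 3.17% of all. The pairs of near copies share sequence, so their matches are not independent of each other, and a match is not a binding site.

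The mean of the 4 genes that define the classes did not spread evenly (the plot of the score by array). In water 1, water 2 and nicotine 2 it was 8.52, 8.71 and 9.68 log2 units, in nicotine 4 it was 10.001, and in water 3, nicotine 5, water 5 and water 4 it was 12.99, 13.22, 13.49 and 13.52. The widest step between neighbouring arrays, 2.98 log2 units, lay between nicotine 4 and water 3. Nicotine 4 lay above the limit of 10 by 0.0014 log2 units only and stood below the 4 higher arrays in all 11 tested secretory genes. The 4 arrays above the step are therefore called vesicle-rich, the 3 arrays below the limit vesicle-poor, and nicotine 4 is the array at the limit. The comparisons over all genes are given in 2 ways. Nicotine 4 is among the high arrays, as the limit puts it (5 against 3), or among the low ones (4 against 4). The second way was chosen after the values of nicotine 4 were seen. Class differences of single genes and of lists are those of 4 against 4 unless 5 against 3 is named. The vesicle-rich arrays were 3 of the 5 water mice and 1 of the 5 nicotine mice. The 2 arrays left out, nicotine 1 and nicotine 3, had scores of 8.18 and 6.50 with Chga at 11.74 and 11.31, while Chga in the 8 compared arrays lay between 7.07 and 7.73. Over all genes the 8 arrays correlated with each other at 0.980 to 0.993, and the 2 left out correlated with them at 0.648 to 0.891.

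**Figure D1:**
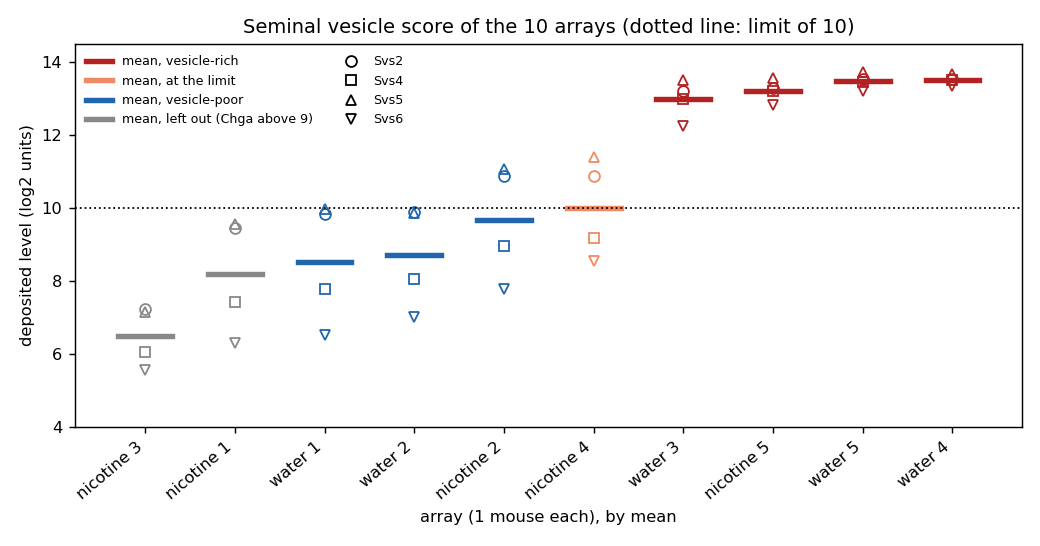
Level of Svs2, Svs4, Svs5 and Svs6 (open symbols) and their mean (bars) in log2 units on each of the 10 arrays, ordered by the mean, with 1 mouse per array. Nicotine 4 sits on the limit of 10, 2.98 log2 units below the lowest vesicle-rich array, and the 2 grey arrays were left out for their Chga level.

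The 4 defining genes gave these values. Svs2 encodes the main plug protein of the mouse. Its levels were 9.83 in water 1, 9.90 in water 2, 10.89 in nicotine 2 and 10.89 in nicotine 4, against 13.22 in water 3, 13.30 in nicotine 5, 13.55 in water 5 and 13.54 in water 4. The low 4 arrays and the high 4 did not overlap, and the means of 10.38 ± 0.59 (SD, n = 4) and 13.40 ± 0.17 (SD, n = 4) differed by 3.02 log2 units. Svs5 behaved alike, with a difference of 3.04 log2 units and the smallest spread among the rich arrays, 0.24 log2 units. Both lay close to the top of the arrays' scale in the rich arrays, where the highest value of any probe set was between 13.98 and 14.12, so no fold is given for them. Svs4, a small basic androgen-dependent protein, was at 7.77, 8.06, 8.95 and 9.19 in water 1, water 2, nicotine 2 and nicotine 4, and at 12.98, 13.20, 13.45 and 13.52 in water 3, nicotine 5, water 5 and water 4. Svs6 ran from 6.51 to 8.54 in the low 4 arrays and from 12.24 to 13.34 in the high 4, a difference of 5.45 log2 units. These values chose the arrays and carry no test.

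The other tested genes on a list of secretory genes of the gland followed the defining 4 in every array class. Since they are made by the same epithelium they too are described without a test. Of 15 names on this list, 14 were measured and 11 passed the filter on low mean levels, 4 of them the defining genes. Svs3a, a plug protein, stood at 4.88 in water 1, 5.22 in water 2, 5.44 in nicotine 2 and 6.69 in nicotine 4, and at 10.68 in water 3, 11.55 in nicotine 5, 12.36 in water 5 and 12.97 in water 4. Its low-array mean of 5.56 lay under the lowest mean that the filter kept, 6.55, and whether it was above background there was not tested, so no fold is given. Its near copy Svs3b differed by 5.33 log2 units. Svs1, related to copper amine oxidases, ran from 6.84 to 8.12 in the low arrays and from 11.85 to 13.06 in the high ones. Among the genes outside the chromosome 2 cluster, Sva (a sperm-binding autoantigen of the gland) differed by 5.85 log2 units, Pate4 (a small cysteine-rich secreted protein) by 5.38, Ceacam10 (a secreted member of the carcinoembryonic antigen family) by 5.03 and Spinkl (related to Kazal-type protease inhibitors) by 5.00. The low-array means of Sva and Spinkl, 6.62 and 6.58, lay just above the lowest mean kept, and both genes lay under it in nicotine 1 and nicotine 3. Whether they were above background there was not tested.

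Over the 11 genes the 4 rich minus 4 poor difference had a median of 5.03 log2 units, the narrowest gap between the groups was 2.11 log2 units (Svs5) and the widest 4.19 (Svs3b). Of the 3 measured genes below the filter, Sval1 and Sval3 lay between 4.34 and 4.74 on all 10 arrays, and Sval2 was at 7.04 in water 4 and 5.90 in water 5 but between 4.25 and 4.92 elsewhere. A second list, of other seminal vesicle products, did not follow the score as a set. Its 10 tested genes differed by −0.08 to 0.56 log2 units in the 4 against 4 comparison, with a median of −0.0007. There 0 passed the adjusted threshold, and 1 was higher at an unadjusted p under 0.05 (limma), beside 1.5% of all genes.

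**Figure D2:**
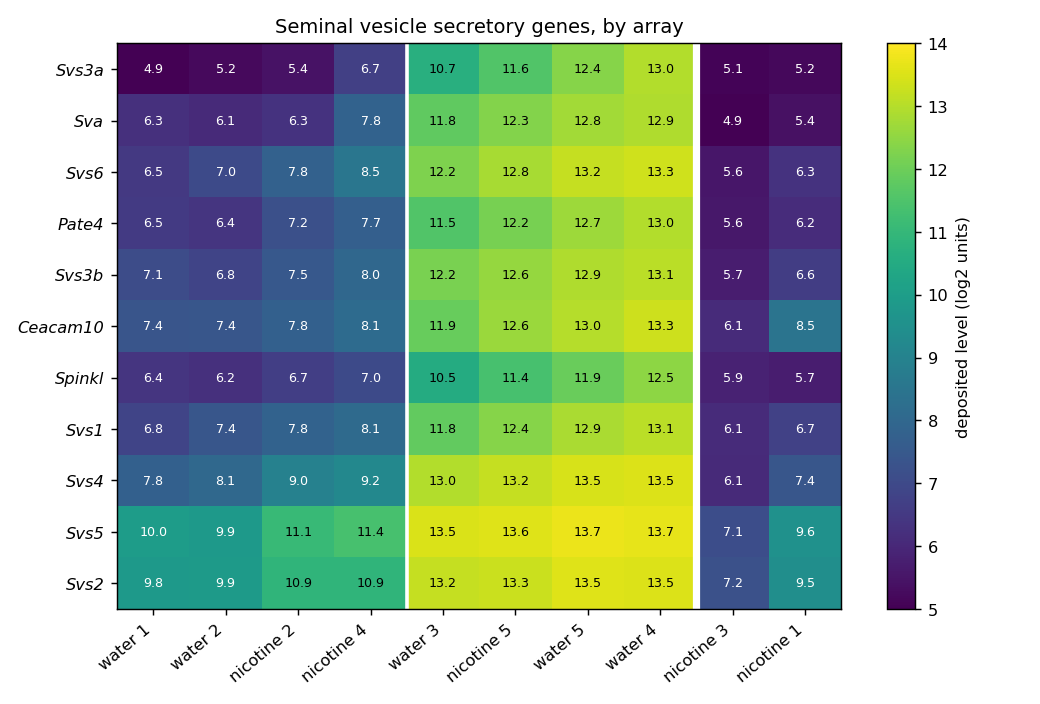
Deposited log2 level of the 11 tested seminal vesicle secretory genes (rows, by size of the difference) on each array (columns). The white lines part the 4 lower arrays, nicotine 4 included, from the 4 vesicle-rich arrays and these from the 2 arrays left out; water 4 was the highest array for 9 of the 11 genes.

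The arrays kept 1 order in most of these genes. Water 3 was the lowest of the 4 rich arrays in 11 of 11 genes, and the order water 3, nicotine 5, water 5, water 4 held in 9. Water 4 exceeded water 3 by 0.17 to 2.29 log2 units, with a median of 1.12. Among the low arrays, nicotine 4 was the highest in 10 of 11 genes, and nicotine 2 exceeded both low water arrays in 11 of 11. Nicotine 3 was the lowest of all 10 arrays in 9 of the 11. In bulk tissue a smaller share of vesicle cells and less RNA per vesicle cell cannot be told apart.

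Within water mice alone, 3 rich against 2 poor arrays, the 11 genes differed by 3.57 to 6.95 log2 units with a median of 5.45. Within nicotine mice, nicotine 5 against nicotine 2 and nicotine 4, they differed by 2.33 to 5.49 with a median of 4.66, smaller in 11 of 11 genes. Nicotine 5 minus the mean of the rich water arrays had a median of −0.15 log2 units, whereas the 2 low nicotine arrays lay above the 2 low water arrays by a median of 0.98. The difference between drinking groups carries no test here, with 1 rich nicotine array.

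Across all 14953 tested genes, the limit of 10 as written gave no gene past an adjusted p of 0.05 in either direction (0% higher and 0% lower, limma, drinking group as covariate, Benjamini-Hochberg), with a smallest adjusted p of 0.811. At an unadjusted p under 0.05 it gave 599 genes, 245 higher (1.64%) and 354 lower (2.37%). With nicotine 4 among the low arrays 13 genes passed higher (0.0869%) and 0 lower (0%), with 412 at an unadjusted p under 0.05, 224 of them higher (1.5%) and 188 lower (1.26%). The 13 include the 11 secretory genes, 4 of which defined the classes while the others follow the same score, so the choice of arrays fixed these calls and nothing is read from them. Outside that list 2 genes passed, Pate14 and Wfdc15b. With the score itself as a continuous measure, Pate14, Wfdc15b and 9530003J23Rik passed outside the list. Within water mice 9530003J23Rik alone did, and without nicotine 4 in the 5 against 3 comparison no gene outside the list passed. Classes of 5 and 3 arrays that did not overlap were found in 0.782% of tested genes in the higher and 1.13% in the lower direction, and classes of 4 and 4 in 0.762% and 0.769%.

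Beyond the secretory genes the classes were close to each other (the plot of differences for all tested genes). Of 14942 tested genes outside that list, 13 differed by more than 1 log2 unit in the 4 against 4 comparison, 13 higher and 0 lower. For 14886 of them (99.6%) the 95% interval of the difference lay within 1 log2 unit of 0, and for 14511 (97.1%) within 0.5. The median difference over all tested genes was −0.007 log2 units, and −0.01 in the 5 against 3 comparison.

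**Figure D3:**
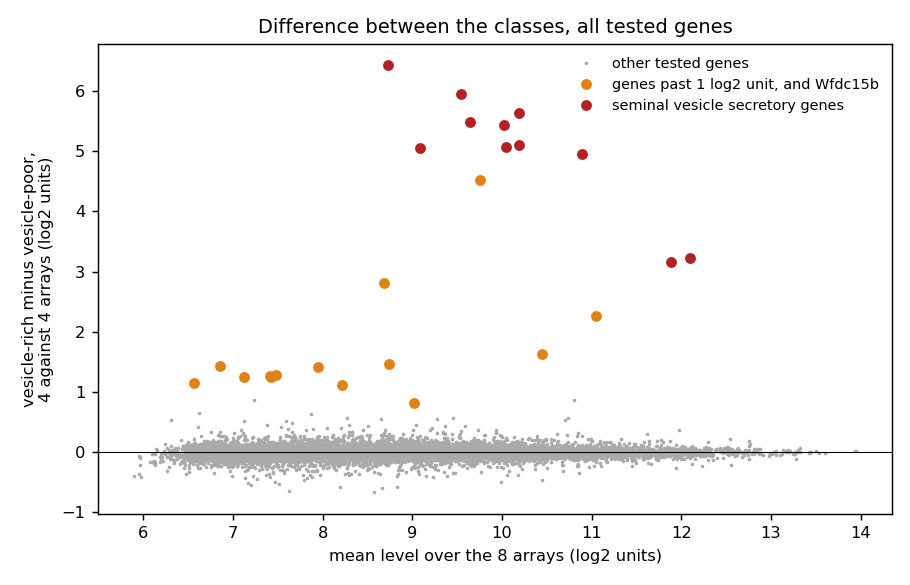
Difference between vesicle-rich and lower arrays (4 against 4, fitted with drinking group as covariate) against the mean level over the 8 arrays, both in log2 units, 1 point per tested gene. The 11 secretory genes lie above 3 log2 units, 13 other genes lie above 1, and no gene lies below −1.

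Pate14 and Wfdc15b were the genes outside the list that passed the threshold, and in both water 3 was the lowest of the rich arrays. Pate14, a member of the small secreted Pate family that is also listed among prostate lobe products, was at 10.25 in water 1, 9.65 in water 2, 10.08 in nicotine 2 and 9.63 in nicotine 4, against 11.41 in water 3, 12.09 in nicotine 5, 12.42 in water 5 and 12.87 in water 4. The groups of 4 did not overlap, and Pate14 rose by 2.27 ± 0.28 (SE) log2 units, higher in 4 of 4 arrays (adjusted p = 0.0195, limma). Over the 17 alternatives of that comparison its adjusted p ran from 0.000597 to 0.853 and passed the threshold in 10. It was lost without water 1, water 2, water 5, nicotine 4 or nicotine 5. In the 5 against 3 comparison its difference was 1.75 ± 0.55 (SE), not past the threshold.

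Wfdc15b, a WAP-domain gene of a family of secreted protease inhibitors, was between 8.55 and 8.68 in the 4 low arrays, and at 9.10 in water 3, 9.46 in nicotine 5, 9.60 in water 5 and 9.52 in water 4. It rose by 0.81 ± 0.11 (SE) log2 units, with 4 of 4 rich arrays above every low one (adjusted p = 0.0284, limma). Over 17 alternatives its adjusted p (limma) ran from 0.000852 to 0.581 and passed in 8. Leaving out any 1 array but water 3 lost it. In the 5 against 3 comparison its difference was 0.69 ± 0.17 (SE), not past the threshold. With the continuous score both genes passed, Pate14 at an adjusted p of 0.015 and Wfdc15b at 0.0189 (limma). That score is the mean of the 4 defining genes and parts the same arrays. These p-values are therefore not independent of the 4 against 4 comparison.

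A second tier of genes was higher in the rich arrays by more than 1 log2 unit in the 4 against 4 comparison. Except for Pate14, they did not pass the adjusted threshold there, and with 5 against 3 arrays 0 of the 13 passed. They were chosen by size after their values were seen. Since the same arrays chose them, their values are a description. For 3 of the 13, Smpx, Slco1a5 and Pate6, the mean of the low arrays lay under the lowest mean that the filter kept, 6.55 log2 units, so they passed it through the rich arrays. Dnase2b, an acid DNase, was at 7.15, 7.29, 7.75 and 6.73 in water 1, water 2, nicotine 2 and nicotine 4, and climbed over the rich arrays from 8.82 in water 3 through 9.41 in nicotine 5 and 10.38 in water 5 to 11.93 in water 4. Its difference was 2.81 ± 0.57 (SE) log2 units. Cd52, a small surface glycoprotein of lymphocytes that the epididymis also sheds onto sperm, was between 9.40 and 9.87 in the low arrays and between 10.53 and 12.10 in the rich ones.

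The same gradient ran through the weaker members. Elf5, a transcription factor of glandular epithelia, was at most at 6.77 in water 1, water 2 and nicotine 4, slightly higher in nicotine 2, and between 7.20 and 8.75 in the rich arrays, and Anxa9, an annexin, between 6.56 and 7.15 and between 7.42 and 8.42. Slco1a5, an organic anion transporter, differed by 1.42 ± 0.40 (SE) log2 units, Dkkl1, a secreted protein known from sperm, by 1.42 ± 0.39 and Shisa4, a membrane protein, by 1.46 ± 0.35. Doxl2, an amine oxidase related to Svs1, differed by 1.28 ± 0.40 (SE) log2 units and Pate6 by 1.24 ± 0.51. Bpgm, an enzyme of red cell glycolysis, differed by 1.12 ± 0.30 and Smpx, a small muscle protein, by 1.14 ± 0.42. The last member, 9530003J23Rik, differed by 4.52 ± 0.77 (SE) log2 units, but nicotine 2 was at 10.73, next to water 3 at 10.93, while water 1 and water 2 were at 6.15 and 6.26.

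**Figure D4:**
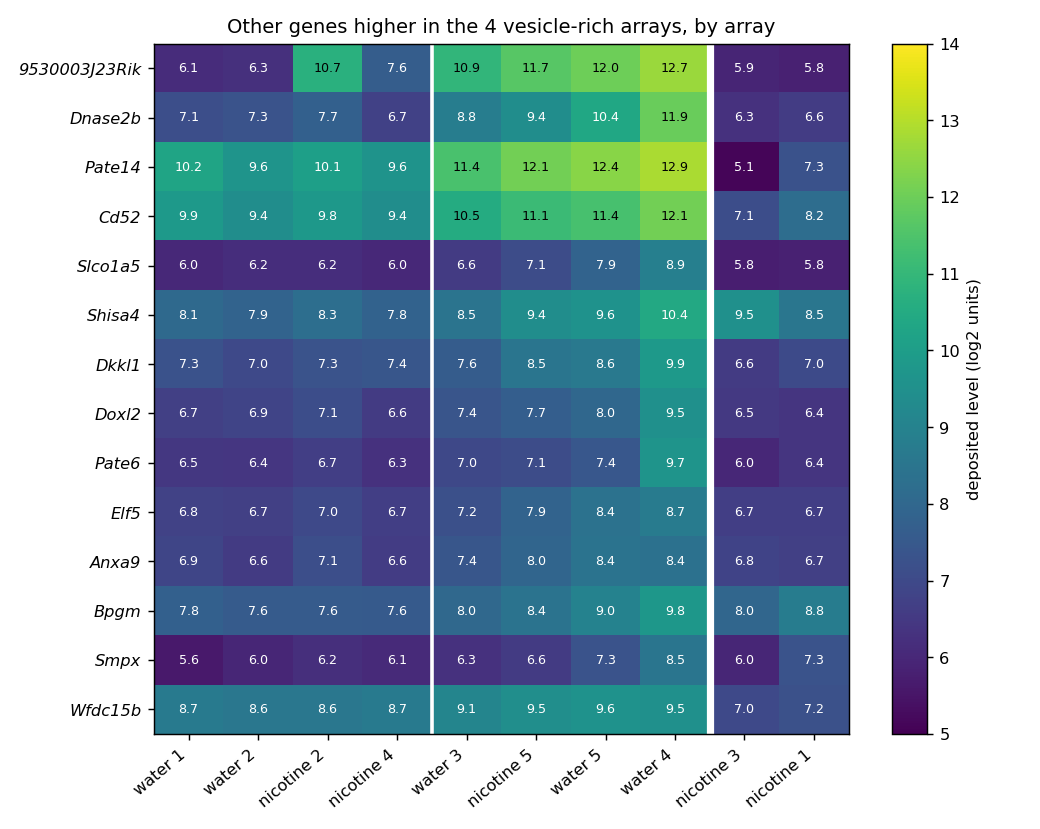
Deposited log2 level of the 13 other genes with a difference above 1 log2 unit and of Wfdc15b on each array, in the same column order as for the secretory genes. Water 4 was the highest array for 12 of the 13 and water 3 the lowest rich array for 13, and 9530003J23Rik was also high in nicotine 2.

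In 12 of these 13 genes the rich arrays followed the order seen in 9 of the 11 secretory genes: water 3, nicotine 5, water 5, water 4. How many of all tested genes kept this order was not counted. The step from water 3 to water 4 was wider in the second tier, with a median of 1.99 log2 units against the 1.12 of the secretory genes. The second-tier genes were chosen for a large difference, and their rich-array means lay between 7.15 and 12.20. Those of the secretory genes lay between 11.59 and 13.62, nearer the top of the arrays' scale. At that top Svs5 ranged over only 0.24 log2 units among the rich arrays, and Svs3a, lower down, over 2.29. The 2 steps are thus not on a like scale. Among the low arrays the 2 sets differed, since nicotine 4 exceeded the other 3 low arrays in 1 of the 13 second-tier genes (Dkkl1) and in 10 of the 11 secretory ones. Neither contrast was tested.

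Few genes beside the secretory genes moved with them. Of the 20 genes flanking the Svs2 to Svs5 cluster in the RefSeq order, 15 were tested. They differed by −0.08 to 0.81 log2 units with a median of −0.03. Of these 1, Wfdc15b, passed in the 4 against 4 comparison, beside 0.0869% of all genes. With 5 against 3 arrays 0 of all tested genes passed. Around Pate4, Sva, Svs1 and Ceacam10, 9, 9, 13 and 12 flanking genes were tested and 0 passed. The largest differences among them were those of Doxl2, which adjoins Svs1, and Pate6, 6 genes from Pate4. The other tested flanking genes lay between −0.42 and 0.24 log2 units.

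Prostate secretory genes were abundant in both classes. Pbsn, whose promoter drives the transgene, was between 10.95 and 12.20 in the low arrays and between 10.86 and 11.54 in the rich ones, a difference of −0.10 ± 0.27 (SE) log2 units. Tgm4, the plug-forming transglutaminase, was between 11.94 and 13.17 and between 11.79 and 12.60, a difference of −0.08 ± 0.29. For both the highest array was nicotine 2, and their 5 against 3 differences of −0.27 and −0.29 turned to 0.27 and 0.23 without it. Of 20 tested prostate lobe products 1, Pate14, passed in the 4 against 4 comparison and 19 did not, beside 0.0869% of all genes. In the 5 against 3 comparison 0 passed, beside 0% of all genes. The list's median 4 against 4 difference was −0.03 log2 units beside −0.007 over all genes. The mean log2 level of the list lay between 10.81 and 11.07 in the rich arrays and between 10.71 and 10.99 in the low ones. Both defining prostate markers were thus high in the 8 arrays, whereas in nicotine 3 Pbsn was at 5.08 and Tgm4 at 6.58.

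Markers of other neighbouring tracts were read beside the secretory genes. Of 6 tested genes of the vas deferens and epididymis 0 passed and 1, Cd52, was higher at an unadjusted p under 0.05 (1.5% of all genes), with a list median of 0.05 log2 units. Of 9 urothelial genes 0 passed, with a median of 0.08. Wolffian duct and urogenital sinus regulators were tested as 20 and 16 genes. Of the 20 Wolffian genes 0 passed, 5 were higher and 2 lower at an unadjusted p under 0.05 in the 4 against 4 comparison, where 1.5% and 1.26% of all genes were, and the median was 0.001 log2 units. Hoxd8 differed by 0.27 ± 0.11 (SE) log2 units and Hoxd10 by 0.24 ± 0.10, while Ret, the receptor that guides duct outgrowth, differed by −0.27 ± 0.10 and its co-receptor Gfra1 by −0.26 ± 0.11. Groups of 4 overlapped in each of these 4 genes. In nicotine 1, left out for its Chga level, Hoxd8 was at 10.13 and Ret at 11.40.

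Genes of the supporting tissue differed by small amounts (the plot of list medians). Among 18 smooth muscle genes 0 passed, and the median was 0.15 log2 units, 0.10 in the 5 against 3 comparison. At an unadjusted p under 0.05 (limma) 4 were higher and 0 lower with 4 against 4 arrays (1.5% and 1.26% of all genes). With 5 against 3 arrays 1 was higher and 0 lower (1.64% and 2.37% of all genes). Cnn1, a contractile protein of smooth muscle, was between 11.66 and 11.93 in the low arrays and between 11.84 and 12.15 in the rich ones, where nicotine 5 was the highest. Pgm5 and Lmod1, of the same muscle, differed by 0.20 ± 0.08 (SE) and 0.19 ± 0.07 log2 units. Of 14 skeletal muscle genes 1 was higher at an unadjusted p under 0.05 (1.5% of all genes), Acta1, between 10.51 and 10.70 against between 10.77 and 10.93.

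Counts in several lists, the fibroblast matrix and macrophage lists among them, depended on where nicotine 4 was placed. Of 12 innate defence genes 4 were lower at an unadjusted p under 0.05 (limma) with 5 against 3 arrays and 0 with 4 against 4. Of 13 basal epithelial genes 3 and 0 were lower, and of 25 glutathione and xenobiotic genes 5 and 1 were higher. In the other direction these lists had at most 1 gene each. Over all genes 2.37% and 1.26% were lower, and 1.64% and 1.5% higher. Of 27 fibroblast matrix genes 5 were lower at an unadjusted p under 0.05 with 5 against 3 arrays, where 2.37% of all genes were, and 0 with 4 against 4, where 1.26% were. Col3a1 was the lowest in nicotine 4, at 8.56, and the highest in water 1, at 9.91, and its difference was −0.47 ± 0.12 (SE) and −0.28 ± 0.17 log2 units in the 2 comparisons. Col1a1, the other main fibrillar collagen, gave −0.35 ± 0.14 and −0.21 ± 0.16. Of 20 macrophage and dendritic genes 4 were lower with 5 against 3 (2.37% of all genes) and 0 with 4 against 4 (1.26%), with Itgam at −0.55 ± 0.15 and −0.38 ± 0.20 and Mrc1, a receptor of tissue macrophages, at −0.34 ± 0.13 and −0.24 ± 0.16. None of these passed an adjusted threshold.

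Interferon-induced genes had the highest list median apart from the secretory list, 0.22 log2 units in the 4 against 4 comparison and 0.13 in the 5 against 3, with 0 of 29 passing and 3 higher at an unadjusted p under 0.05 in the former, beside 1.5% of all genes. Oasl1, a 2′-5′-oligoadenylate synthetase relative, was at 9.95 in nicotine 5 and between 9.12 and 9.38 on the other 7 arrays. With 4 against 4 arrays the neuroendocrine list had the lowest median, −0.18 log2 units, with 0 of 15 passing; with 5 against 3 it was −0.09 and the macrophage list was lowest at −0.17. Its Pcsk1, a prohormone convertase, was between 6.49 and 6.82 in the low arrays and between 6.07 and 6.42 in the rich ones, all far below 11.11 in nicotine 1.

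**Figure D5:**
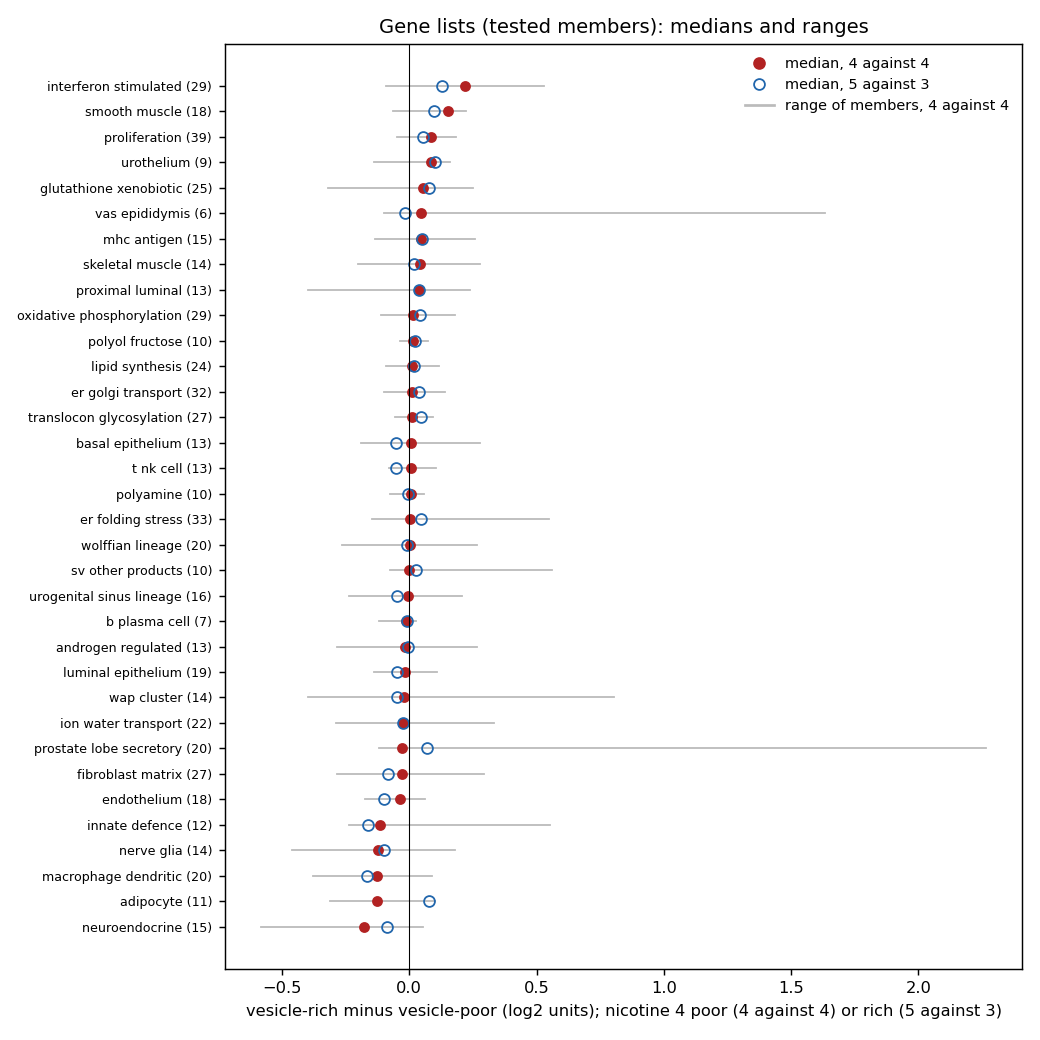
Median difference of each gene list, number of tested members in brackets, with nicotine 4 among the low arrays (filled) or the high ones (open), and the range over members (grey lines), in log2 units. The medians of the 34 lists lay between −0.18 and 0.22 and the 3 longest grey lines end in Cd52, Wfdc15b and Pate14.

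The machinery of secretion, which a gland of such output uses heavily, had list medians near 0. Translocation and glycosylation, folding in the endoplasmic reticulum, and transport to the Golgi were tested as 27, 33 and 32 genes, with 0 passing in each and medians of 0.01, 0.003 and 0.01 log2 units. The 95% interval lay within 0.5 log2 units of 0 for 27, 32 and 32 of them. The exception was Ero1b, an oxidase that aids disulphide formation. It ran from 7.97 to 8.67 in the low arrays and reached 9.50 in water 4 and 9.11 in water 5. Its groups of 4 overlapped, and its difference of 0.55 log2 units was not past the adjusted threshold. Polyol and fructose metabolism, which supplies the sugar of seminal fluid, was tested as 10 genes with a median of 0.02 and 10 of 10 intervals within 0.5 log2 units of 0. Slc26a3, an anion exchanger, was between 7.34 and 7.59 in the low arrays and between 7.64 and 8.01 in the rich ones (0.33 ± 0.07, SE, not past the adjusted threshold). Growth and detoxification lists also had no member past the threshold, and Pcna among 39 proliferation genes differed by 0.18 ± 0.07 (SE), Gstm2 and Gsta3 among 25 glutathione and xenobiotic genes by 0.15 ± 0.08 and 0.25 ± 0.12.

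Likeness to the score was measured by Pearson's r over the 8 arrays, which fall into separate clusters, so r mainly restates the gap between them. Outside the secretory list the 8 most alike were Ppa1, Pnck, Kiss1r, Wfdc15b, Pate14, Khdrbs3, Acta1 and Gclc, with r from 0.909 to 0.984. Apart from Wfdc15b and Pate14 their differences were small, such as 0.24 ± 0.06 (SE) log2 units for Ppa1, an inorganic pyrophosphatase, and 0.40 ± 0.06 for Pnck, a calmodulin-dependent kinase. The 8 most opposed were Phactr1, Klhl34, Dpp6, Dedd, Coro2b, Got1l1, Adpgk and Phf23, with r from −0.952 to −0.894 and differences of −0.22 to −0.06 log2 units. These points share the arrays and their normalization.

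The study's own question, nicotine against water, was asked in the 8 compared arrays with the vesicle class held. These arrays cover 3 of the 5 nicotine mice and 5 of the 5 water mice. The 2 arrays left out for their Chga level were of nicotine mice, so the values speak only for mice of lower Chga. No gene passed with the class by the limit (0% higher and 0% lower), with a smallest adjusted p of 0.0571 and 2182 genes at an unadjusted p under 0.05, 914 higher (6.11%) and 1268 lower (8.48%). With nicotine 4 among the low arrays 0 passed again (0% higher and 0% lower), with a smallest adjusted p of 0.0543 and 1928 genes at an unadjusted p under 0.05, 753 higher (5.04%) and 1175 lower (7.86%). The 6 genes of smallest p were Adgrg2, Cdkn3, H2bc1, C4b, H2bc9 and Phf11c. Adgrg2, an adhesion receptor of male duct epithelium, was at 7.40, 7.54 and 7.76 in nicotine 2, nicotine 4 and nicotine 5 and between 8.01 and 8.27 in the 5 water arrays, a difference of −0.60 ± 0.06 (SE) log2 units. Among the compared arrays of each drinking group its highest value fell in a rich array. Cdkn3, a cell cycle phosphatase, was at 8.83, 8.70 and 8.81 in the same nicotine arrays and between 8.01 and 8.32 in water (0.59 ± 0.07, SE). C4b, a complement component, differed by −0.49 ± 0.06.

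Whether the class difference itself differed between nicotine and water mice was tested by an interaction term. With the limit 0 genes passed (0% higher and 0% lower, smallest adjusted p 0.112), 654 had an unadjusted p under 0.05, 337 higher (2.25%) and 317 lower (2.12%), and the term rests on nicotine 2 as the only low nicotine array. The 6 genes of smallest p were Tppp3, Cp, Gsdma, Steap4, Sult1e1 and Glb1l3. Glb1l3, a galactosidase relative, was at 10.84 in nicotine 2 and between 8.19 and 9.48 on the other 7 arrays, and Gsdma, a gasdermin, at 10.40 and between 8.10 and 9.30. Sult1e1, an oestrogen sulphotransferase, was at 6.81 in nicotine 2 and between 8.45 and 9.00 elsewhere. With nicotine 4 also low, the term rests on nicotine 5 as the only rich nicotine array. For Svs5 and Svs2, whose values helped to choose the arrays, the term was −1.38 and −1.17 log2 units. No test is therefore read from this second fit, and its gene counts are a description. At an unadjusted p under 0.05 stood 267 genes, 171 higher (1.14%) and 96 lower (0.642%).

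Nicotine 2 stood apart from the other 7 arrays in further lists. It was the highest of the 8 arrays in 9 of 13 basal and 11 of 19 luminal epithelial genes, and in 2597 of all 14953 (17.4%). It was the lowest in 20 of 33 folding genes and 15 of 27 translocation and glycosylation genes, and in 2113 of all 14953 (14.1%). Its class by the limit weighs on every 5 against 3 value, since it is 1 of 3 low arrays.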

How the data were processed

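RNA from the prostates of TRAMP mice was measured on 1-colour Affymetrix whole-transcript arrays, 1 per mouse. The values used are the log2 levels deposited by the authors in the series matrix. Their background correction and normalization were not given in the sources. Array medians lay between 7.50 and 7.57. Of 35556 probe sets, 21789 had 1 gene symbol, 1621 had several and 12146 had none; 21698 matched RefSeq by Entrez ID. For each of 19938 genes 1 probe set was kept, that of highest mean level on the 10 arrays, and the 25% of genes with the lowest mean were left out (lowest mean kept 6.55 log2 units), leaving 14953. Differences were tested with limma 3.58.1 in R 4.3.3 (lmFit and eBayes, two-sided, Benjamini-Hochberg over all tested genes, threshold 0.05), with drinking group as covariate. The scripts were tested on simulated data. The number of arrays limits the precision.

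The arrays, members and gene lists were chosen with earlier results of these data known. Genes are named by size of difference among those past the threshold, by smallest p within each list (up to 4), by place beside the Svs genes, by smallest p for nicotine and the interaction (up to 6 each) and by likeness to the score (8 each way); the second tier and the comparison of 4 against 4 arrays were chosen after the values were seen. Of 747 names on 35 lists, 679 were measured and 605 tested. Motifs were searched in the 250 bases before each start.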

Additional observations from a re-analysis of the deposited data

Results flagged for a closer look

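Within the 5 arrays that the limit of 10 log2 units classed as high, single arrays stood far from the other 4 by Dixon's gap test at its 95% level. The class was made from the 4 defining genes, and nicotine 4 lies beside its limit, so the values of the secretory genes are a description with no test. Nicotine 4 was the low one for the mean of the 4 defining genes, at 10.001 log2 units. It was also the low one for Svs1 at 8.12, Svs2 at 10.89, Svs3b at 7.99, Svs4 at 9.19, Svs5 at 11.39 and Svs6 at 8.54. Outside the Svs family the same array stood low for Pate4 at 7.71, Sva at 7.82 and Ceacam10 at 8.14 log2 units.

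Among genes outside the secretory list, nicotine 4 stood apart for Phf23, a PHD finger protein, at 8.41 log2 units. Water 3 stood apart for Itgam, an integrin of myeloid cells, at 7.499, and nicotine 5 for Oasl1 at 9.95. The same values were also examined within the 5 water arrays, where none was flagged. Over both groups of arrays together 126 values were examined and 13 flagged, and chance gives such a gap in about 1 of 20. The secretory genes move together, so their 9 gaps and that of the score are not independent of each other.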

How the results depend on the processing

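Of 139 counts recomputed under alternatives, 121 stayed within 1.5 times the reported count. Of 1414 values for single genes in the 5 against 3, nicotine and interaction fits, 14 changed direction. The alternatives of the 4 against 4 comparison are not among these values and are given further on. In the 5 against 3 comparison the count of higher genes went from 0 to 14 with the continuous score, 12 with water mice only and 13 with nicotine 4 classed low; leaving out 1 array gave 0 to 11, with 11 only without nicotine 4, and 0 to 0 lower. For nicotine minus water the count went from 0 to 16 with trend and robust eBayes, 1350 with array weights and 2 with the continuous score; leaving out 1 array gave 0 to 24, with 24 without water 5. The interaction gave 3 genes without the filter, and 0 to 15 with 1 array left out, 15 without nicotine 5 and 7 without water 4; it could not be fitted without nicotine 2. In the 4 against 4 comparison leaving out 1 array gave 11 to 17 higher and 0 to 0 lower genes, 0 to 14 for nicotine (14 without water 5) and 0 to 0 for the interaction. Its nicotine count was 1 with the lowest 50% of genes left out, 1 with quantile normalization and 1 with centred medians, 3 with trend and robust eBayes and 2170 with array weights, whose fit stopped before it converged in at least 1 comparison. The cause of these changes was not tested.

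With a replicate block on mouse number the 4 against 4 comparison gave 17 higher and 2 lower genes, losing Svs2, Svs5 and Wfdc15b. Their fitted differences, with drinking group as covariate, were 3.02, 2.78 and 0.76 with the block and 3.15, 3.22 and 0.81 without it. The 3.02 and 3.04 given earlier for Svs2 and Svs5 were differences of plain means. The block gained 9 genes, among them Dnase2b, Cd52, Shisa4, Dkkl1, Doxl2 and Pate6. With 5 against 3 the class could not be told apart from mouse number. The same-numbered arrays correlated at 0.232 (mice 2), −0.0946 (mice 4) and 0.333 (mice 5), so the numbers were not taken as pairs.

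With all 10 arrays the 5 against 3 direction turned for Khdrbs3 (−0.35), Hoxd8 (−0.79), Hoxd10 (−0.41), Gfra1 (0.017), Mrc1 (0.089), Pbsn (1.20) and Tgm4 (1.02), and the interaction for Cp (0.55), Steap4 (0.42) and Glb1l3 (0.33). Leaving out 1 array gave −0.48 to 0.27 for Pbsn and −0.51 to 0.23 for Tgm4. With water mice only, as without nicotine 2, it turned for Pbsn (0.27) and Tgm4 (0.23). Over the alternatives of the 4 against 4 comparison the direction also turned for some genes. Col3a1 ran from −0.46 to 0.22, Col1a1 from −0.40 to 0.08, Itgam from −0.54 to 0.37 and Mrc1 from −0.39 to 0.34. Gfra1 ran from −0.35 to 0.06, Pbsn from −0.35 to 0.27 and Tgm4 from −0.27 to 0.23. Gstm2 ran from −0.05 to 0.20, Pcna from −0.03 to 0.23 and Actg2 from −0.03 to 0.19.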

Other observations

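Genes without a single symbol held no further follower of the score: of 13767 probe sets with no symbol or several, 0 had a correlation with the score above 0.9, a difference above 1 log2 unit and groups of 4 that did not overlap. Ceacam10 was at 8.47 log2 units in nicotine 1, above all 4 low arrays, and 6.10 in nicotine 3, below all of them.

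Lipid synthesis and ion and water transport genes added to the pattern of nicotine 2, which was the highest of the 8 arrays in 11 of 24 and 9 of 22 of them, against 17.4% of all tested genes, and the lowest in 12 of 25 glutathione and xenobiotic genes, against 14.1% of all tested genes. It was the highest in 0 of the 11 secretory genes.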
